A study of Ascaris suum with 12 samples.

Results

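The comparison set the mitotic region of the female germline of Ascaris suum, a nematode that lives in pigs, against the pachytene of meiosis. The members were the libraries labelled female mitotic region, female early pachytene and female late pachytene, which are 3 of the 12 samples of the series, and all 61820 transcripts (18025 genes) of the deposited table entered. All 3 libraries came from adult female worms of a North American wildtype strain, collected from freshly isolated pig intestines and given no treatment. RNA came from whole dissected regions, so it holds any somatic cells of the gonad wall beside the germ cells, and the labels do not say how many worms gave a library. Age is not given in the labels. The series also holds 5 male germline regions, a female diplotene and a female oocyte library, which serve here for context. Each region was 1 library. The pachytene libraries were therefore used as a pair, no p-value is given, and a call required the same direction against both.

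In a nematode ovary, germ cells divide by mitosis at the far end of the tube and then enter meiotic prophase. In pachytene the homologous chromosomes are held together along their length and exchange DNA. In C. elegans the pachytene germ cells, which share a common cytoplasm, also make much of the RNA that the later oocyte inherits, while RNA-binding proteins such as GLD-1 and FBF decide between division and meiosis. Transposable elements are held down in germ cells by small RNA pathways. R2 elements, known best from insects, are retrotransposons without long terminal repeats that copy themselves into the genes for large ribosomal RNA.

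The early and late pachytene libraries were close to identical, and the mitotic region stood apart from both. Values are RPKM, read numbers corrected for transcript length and sequencing depth, and differences are of log2(RPKM + 1), which understates the change of low transcripts. Of the transcripts, 21110 (5870 genes) reached 10 RPKM in at least 1 of the 3 libraries. Early and late pachytene differed by more than 2-fold in 55 of these (0.261%). The mitotic region differed by more than 2-fold from early pachytene in 3458 (16.4%) and from late pachytene in 3048 (14.4%). The central 95% of differences ran from -0.24 to 0.27 between early and late pachytene, from -1.40 to 1.38 between mitotic region and early pachytene, and from -1.33 to 1.34 between mitotic region and late pachytene. These spreads describe transcripts, which share libraries and reads, and they do not replace replicates.

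**Figure D1:**
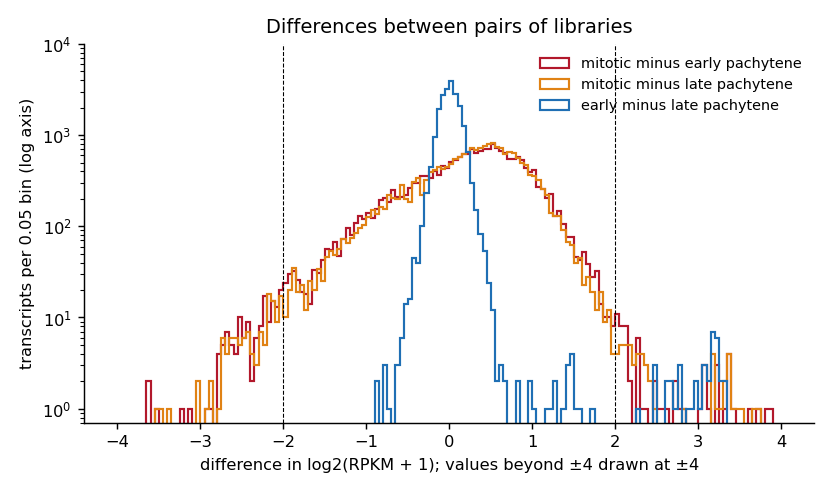
Number of transcripts (log axis, bins of 0.05) by the difference in log2(RPKM + 1) for each pair of libraries, over the 21110 transcripts at 10 RPKM or more in at least 1 of them; dashed lines mark 4-fold. Early against late pachytene (blue) forms a narrow peak with a small separate group to the right, while both mitotic comparisons are broad and centred near 0.3.

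All 55 transcripts (16 genes) that differed more than 2-fold between the pachytene libraries were higher in early pachytene, and 51 of them reached 100 RPKM in the male seminal vesicle library. In the 40 with at least 1000 RPKM there, early pachytene held 0.314% to 0.740% of the seminal vesicle value, the mitotic region 0.0799% to 0.559% and late pachytene 0.0195% to 0.355%. None of the 55 was called. Whether RNA of another library reached these ones was not tested. By annotation, 23 of the 55 are C-type lectins, of 34 such among the 21110, and 12 are collagens, of 68. The C-type lectin list (86 transcripts, 29 genes) shows this in a median. Relative to all transcripts its median difference was -1.84 against early pachytene alone and 0.71 against late pachytene alone, so its direction rests on which pachytene library is read.

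The mitotic region and pachytene differed more by loss than by gain at the 4-fold threshold. A transcript was called at a difference of at least 4-fold from each pachytene library, with the higher values at 10 RPKM or more. By this rule 48 transcripts of 30 genes (0.227% of the 21110) were higher in the mitotic region and 123 transcripts of 50 genes (0.583%) were lower. At 2-fold, 1731 transcripts of 578 genes (8.2%) were higher and 959 of 331 genes (4.54%) were lower. The 2-fold split depended on scaling. The mitotic library was spread over more transcripts, with 22.4% of its summed RPKM in its 100 highest transcripts against 33.9% in early and 31.8% in late pachytene. The median transcript at 1 RPKM or more was 0.26 higher in the mitotic region. With the 100 highest transcripts removed and totals made equal, the median was 0.088 higher. The source of this shift was not tested. After the 3 libraries were rescaled to a common median ratio, a shift of 0.31 between mitotic region and pachytene, the 2-fold counts were 505 higher and 1875 lower, and higher calls fell from 64.3% to 21.2% of all 2-fold calls. The 4-fold counts became 25 and 232. All 123 lower calls remained, as they must because this shift can only add lower calls, and 25 of the 48 higher ones remained. In bulk tissue, fewer cells of a type and less RNA per cell cannot be told apart.

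At the threshold itself, a zinc finger RNA-binding protein 2 transcript (AgR031_g068_t03) was just inside at 68.8 RPKM against 15.7 and 16.1, and a hypothetical transcript (AgR011_g129_t05) was just outside at 12.1 against 2.0 and 2.3. On the lower side, a Protein C-ets-2 transcript (AgB02_g048_t09) was just inside at 4.5 against 26.2 and 21.0, and a receptor-type tyrosine-protein phosphatase epsilon transcript (AgR017_g057_t01) just outside at 31.9 against 143.9 and 130.4.

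**Figure D2:**
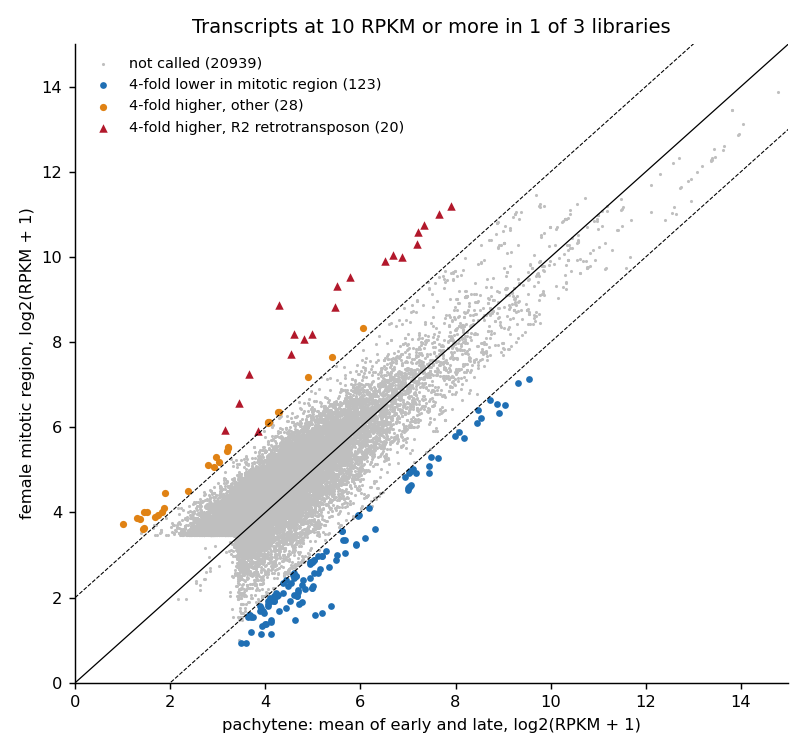
Each point is 1 of the 21110 transcripts, with the mean of early and late pachytene on the x axis and the mitotic region on the y axis, both as log2(RPKM + 1); the solid line is equality and dashed lines are 4-fold. The call places the 20 R2 retrotransposon transcripts (red triangles) above the upper dashed line and the 123 lower transcripts (blue) below the other. The R2 transcripts run from 59.0 to 2343.1 RPKM in the mitotic region.

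R2 retrotransposon transcripts were the clearest gain of the mitotic region. The table names 32 transcripts of 22 genes for the Pol polyprotein of a type-1 retrotransposable element R2, the protein that carries the reverse transcriptase. Of these, 21 transcripts (16 genes) reached 10 RPKM, and 20 of the 21 (15 genes) were called higher in the mitotic region, which is 20 of all 48 higher calls. The 20 ranged from 59.0 to 2343.1 RPKM in the mitotic region with a median of 552. The same transcripts ranged from 7.9 to 247.5 with a median of 43.0 in early pachytene, and from 7.8 to 229.9 with a median of 44.5 in late pachytene. Early pachytene held a median of 9.71% of the mitotic value and late pachytene 9.74%. Rescaled to a common median ratio, 19 of the 20 were still called.

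The highest R2 transcript was AgR011_g309_t04, 1 exon of 341 nt on scaffold AgR011 from 5002463 to 5002803, with 2343.1 RPKM in the mitotic region, 247.5 in early and 229.9 in late pachytene. Coordinates are those of the deposited table, and no source used here names their genome build. AgR022_g006_t01, 566 nt on scaffold AgR022 from 34651 to 35216, had 1723.6, 161.4 and 161.2 RPKM in the same order. AgR003_g265_t01, 2285 nt on scaffold AgR003 from 4586045 to 4588329, had 1059.6, 103.8 and 101.4 RPKM. These 3 lie on different scaffolds, and in each the pachytene values were close to one another and about as far below the mitotic one. The largest difference was that of AgR011_g308_t01, at 467.2, 15.9 and 21.6 RPKM, which is 4.79 above early and 4.37 above late pachytene on the log2 scale. The smallest among called R2 transcripts was 2.05, of AgB14_g012_t01 at 59.0, 13.5 and 13.2 RPKM, and this is the one that lost its call on rescaling. R2 copies are alike in sequence and reads can be shared between them, so the number of active copies cannot be read from these values.

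An exception was AgR022_g004_t01, a 2-exon R2-named transcript of 1464 nt on scaffold AgR022 from 22253 to 27067. It had 342.5 RPKM in the mitotic region, 318.8 in early and 273.5 in late pachytene, and so differed little between the regions, while AgR022_g002_t01 and AgR022_g006_t01 on either side of it were called. In diplotene it reached 3339.9 RPKM, against 145.6 at most in the 20 called. The remaining 11 R2-named transcripts (6 genes) were under 10 RPKM in all 3 libraries. Each of the 11 was higher in the mitotic region than in both pachytene libraries, at 0.5 to 4.5 RPKM there.

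Other libraries, which the call did not use, showed where else the 20 R2 transcripts were present. Male mitotic region values ranged from 51.1 to 2299.0 RPKM with a median of 437, and were a median of 88.2% of the female mitotic values. Male post-meiotic values, from 75.2 to 3427.8, were above the female mitotic value for all 20. In the female, 19 of the 20 were lower in diplotene than in late pachytene, the exception being AgR011_g308_t01 at 31.4 RPKM after 21.6. Diplotene values were 4.2 to 145.6 with a median of 37.6, and in the oocyte library 19 of the 20 were at 0.5 RPKM or less. AgB14_g012_t01 was again different, at 11.8 RPKM in oocytes.

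Elements other than R2 did not follow to the same degree. The transposable element list held 264 further transcripts of 180 genes, of which 15 transcripts (6 genes) reached 10 RPKM. None was 4-fold higher. At 2-fold, 5 of the 15 (2 genes) were higher, beside 8.2% of the 21110, and none of the 5 remained after rescaling. The median difference of the 15 was 0.99 from early and 1.04 from late pachytene, beside 0.32 and 0.34 for the 21110. Of the host sequence that R2 is known to enter, the table holds transcripts named for TAR1 and Regulator of rDNA transcription protein 15, names given to proteins encoded within yeast ribosomal DNA. All 9 such transcripts (3 genes on scaffold AgR002) were between 494.3 and 1841.9 RPKM in the mitotic region and between 526.9 and 2117.4 in early pachytene. All 9 were higher in early pachytene than in the mitotic region, and 7 of the 9 were higher in late pachytene, where they ranged from 425.5 to 1768.2. The RNA was depleted of ribosomal RNA, and how well this worked in each library was not tested.

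**Figure D3:**
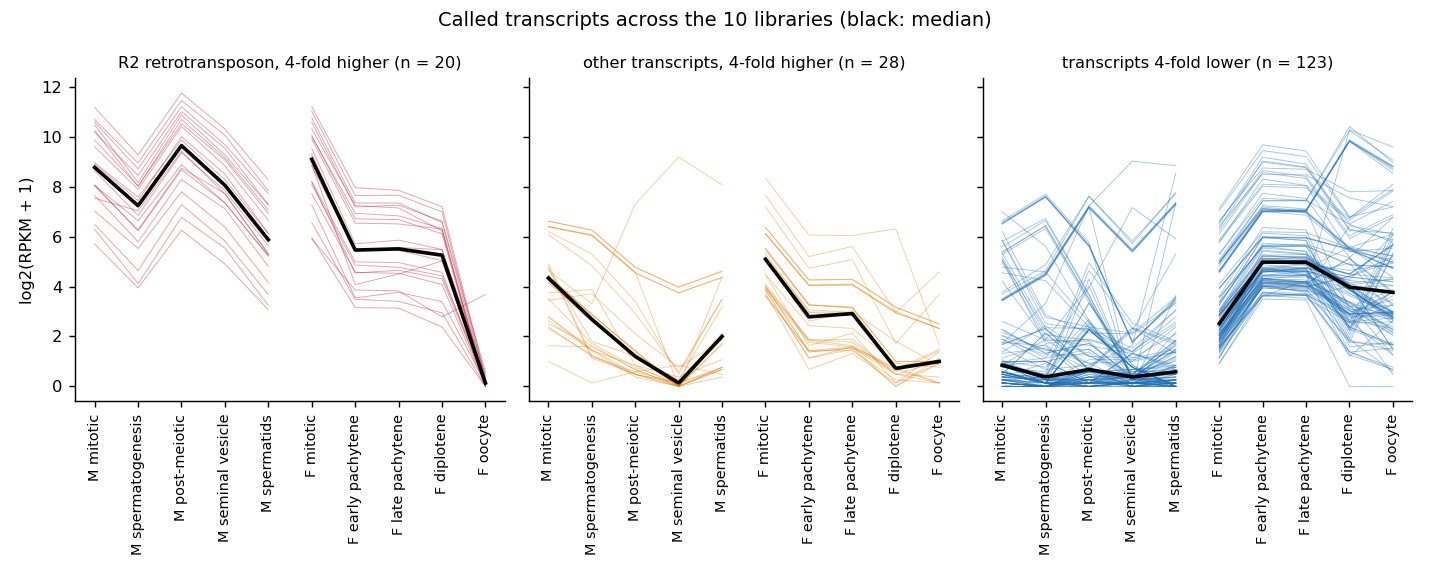
Each thin line is 1 called transcript across the 5 male (M) and 5 female (F) libraries as log2(RPKM + 1), and the black line is the median of the set. R2 transcripts (left, 20) fall at early pachytene and, with 1 exception, to near 0 in oocytes, 25 of the 28 other higher transcripts (middle) have their highest male value in the male mitotic region, and most of the 123 lower transcripts (right) are near 0 in male libraries.

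The other 28 higher calls (15 genes) were smaller gains, with differences of 2.03 to 2.46 and a median of 2.13. The highest was a transcript named Msx2-interacting protein, a transcriptional repressor in mammals, AgR009X_g271_t09, at 323.5 RPKM in the mitotic region, 65.7 in early and 64.9 in late pachytene. It was 1 of 7 transcripts of its gene at 10 RPKM or more, and the only one called. Its value in the male seminal vesicle, 579.7 RPKM, exceeded that in the female mitotic region. A spindle- and centromere-associated protein transcript, AgE05_g008_t05, had 199.6 RPKM against 35.7 and 47.5, and was 1 of 19 of its gene.

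In 4 genes, 3 or more transcripts were called higher. They were the R2 gene AgR011_g309 (5 of 5 transcripts at 10 RPKM or more), the gene AgR023_g026 named let-75 (6 of 6), the gene AgR031_g068 named zinc finger RNA-binding protein 2 (5 of 6) and the gene AgR068_g002 named Titin (4 of 4). In C. elegans let-75 encodes a muscle myosin heavy chain. Its highest transcript here, AgR023_g026_t03, had 45.1 RPKM in the mitotic region, 8.6 in early and 8.0 in late pachytene. The Titin-named AgR068_g002_t06 had 16.2, 2.6 and 2.7 RPKM, and the zinc finger RNA-binding protein 2 transcript AgR031_g068_t06 had 81.6, 18.2 and 18.6. Both pachytene values were alike in each, as for most transcripts. On rescaling, these transcripts no longer reached 4-fold, with differences of 1.98 for let-75, 1.94 for Titin and 1.77 for the zinc finger protein, and neither did the Msx2-interacting protein transcript at 1.98.

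Among the remaining higher calls, a transcript of zinc finger protein lin-13 (AgR055_g058_t01) had 21.5 against 4.4 and 4.0 RPKM, and general transcription factor 3C polypeptide 5, a subunit of a factor for RNA polymerase III (AgB08X_g030_t01), had 11.5 against 1.6 and 1.9. The hypothetical proteins among the higher calls covered 7 genes. The highest of these, chosen after values were seen, was AgR036X_g008_t01, a 1-exon transcript at 145.2 against 25.5 and 32.7 RPKM. It was the only one of 20 transcripts of its gene that was called.

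**Figure D4:**
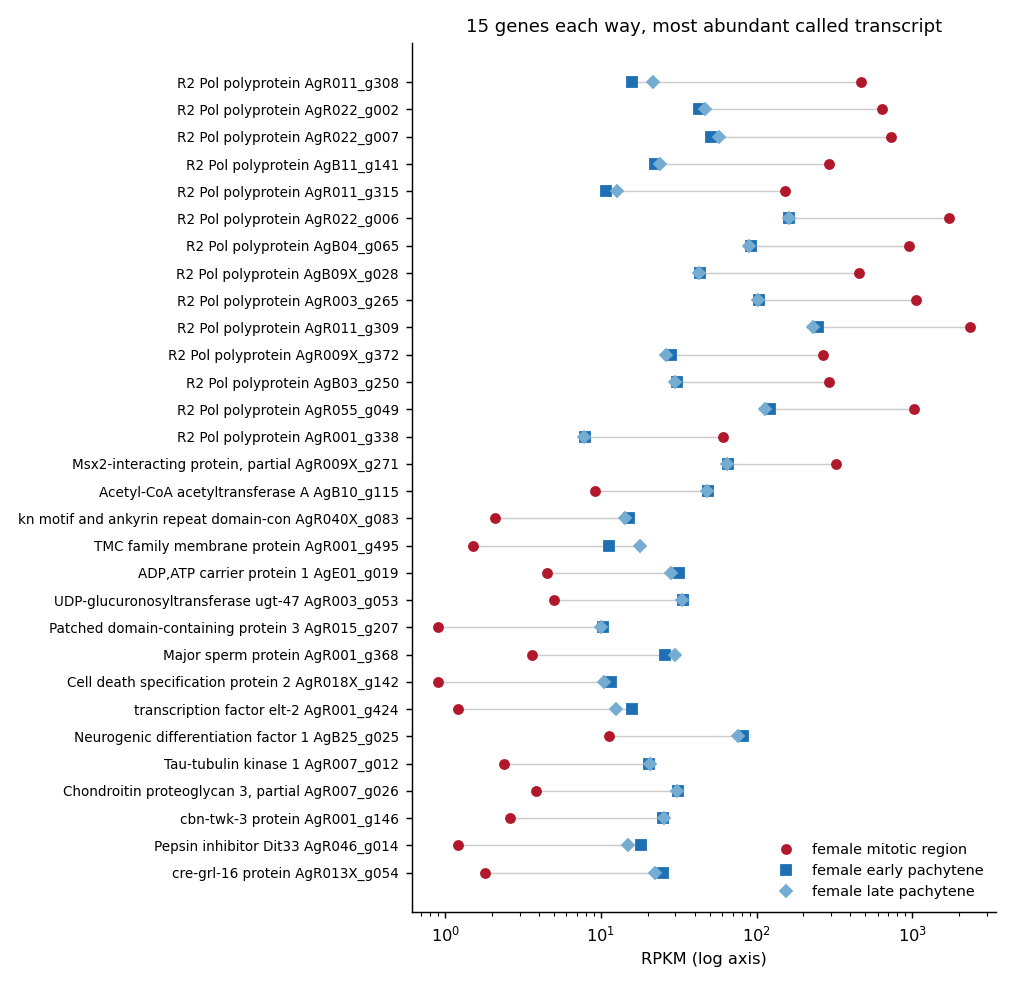
RPKM (log axis) in the mitotic region (red), early pachytene (dark blue) and late pachytene (light blue) for 15 genes each way, those with the largest differences when each annotated gene is represented by its most abundant called transcript. Of the 15 higher genes, 14 are R2 copies and the other is Msx2-interacting protein, and the 2 pachytene symbols lie close together in most rows, farthest apart for the TMC family membrane protein (AgR001_g495) at 11.3 and 17.7 and the R2 copy AgR011_g308 at 15.9 and 21.6.

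The 123 lower calls came mostly from genes that were low in the mitotic region and present in pachytene. Their median was 4.7 RPKM in the mitotic region, 30.5 in early and 30.4 in late pachytene. The most abundant, and the one with the largest difference, were hypothetical proteins, named here after their values were seen. AgR027X_g020_t01 had 2.5 RPKM in the mitotic region, 42.9 in early and 38.8 in late pachytene, a difference of -3.51 from the nearer. AgB07_g136_t01 had 138.9 RPKM in the mitotic region, 815.9 in early and 685.1 in late pachytene, and AgR038_g104_t04 had 129.8, 693.7 and 587.8. Each overlaps or ends close to an opposite-strand gene with the same pattern, AgB07_g151_t02 at 52.9, 314.1 and 263.3 and AgR038_g105_t01 at 37.5, 211.4 and 183.4. No source used here says whether the counting used strand, so reads of such neighbours may not be separable.

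Transcription factors were among the lower calls. The elt-2 transcript AgR001_g424_t11, a GATA factor that in C. elegans directs the intestine, had 1.2 RPKM in the mitotic region, 15.8 in early and 12.5 in late pachytene. It was the only one of 16 transcripts of its gene at 10 RPKM or more. The transcript of Neurogenic differentiation factor 1, a basic helix-loop-helix factor (AgB25_g025_t16), had 11.2, 81.4 and 75.7 RPKM, and 7 of the 14 transcripts of the gene at 10 RPKM or more were called. Cell death specification protein 2, a leucine zipper factor that in C. elegans sets which neuronal sister cell dies (AgR018X_g142_t02), had 0.9, 11.6 and 10.5 RPKM. All 3 were at or below 3.8 RPKM in the male mitotic region.

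Among other lower calls, metalloproteinase inhibitor tag-225 (AgR008_g220_t03) had 99.3 RPKM in the mitotic region, 427.3 in early and 413.4 in late pachytene. The astacin-type zinc metalloproteinase nas-5 (AgR005_g432_t01) had 38.7, 183.6 and 173.8, and cre-egl-26 protein (AgB02_g261_t01), whose C. elegans counterpart shapes the vulva, had 57.8, 272.4 and 262.1. Pepsin inhibitor Dit33 (AgR046_g014_t01) had 1.2, 18 and 15 and went on to 1242.7 in diplotene. Chondroitin proteoglycan 3 (AgR007_g026_t05), of a family that builds the C. elegans eggshell, had 3.8, 31.2 and 30.7, and cre-grl-16 protein (AgR013X_g054_t01) had 1.8, 25.1 and 22.1. In all of these, early and late pachytene lay far closer to each other than to the mitotic region. The rule favours this, and the pachytene libraries were alike for most transcripts.

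Of enzymes among the lower calls, sphingomyelin phosphodiesterase 1, which cleaves a membrane lipid (AgR013X_g203_t01), had 29.5 RPKM in the mitotic region, 150.3 in early and 136.4 in late pachytene. UDP-glucuronosyltransferase ugt-47, a conjugating enzyme (AgR003_g053_t06), had 5.0, 33.5 and 33.1, and acetyl-CoA acetyltransferase A (AgB10_g115_t01) had 9.2, 49.0 and 48.2. Alkylglycerol monooxygenase, which cleaves ether lipids (AgB12_g098_t06), had 16.2, 72.0 and 70.5. The first 3 of these 4 fell to 8.3 RPKM or less by diplotene, while the last was at 45.6. The ADP,ATP carrier protein 1 transcript AgE01_g019_t01, at 4.5, 31.5 and 28.3, was the only called lower transcript of a gene that is eliminated from somatic cells.

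Of receptors and channels, cbn-twk-3 protein, a potassium channel (AgR001_g146_t01), had 2.6 RPKM in the mitotic region, 25.1 in early and 25.4 in late pachytene. The serpentine receptor class X 45 gene AgR016_g175 had 7 of 7 transcripts called, with its highest at 3.2, 19.1 and 17.2. The Tau-tubulin kinase 1 genes AgR007_g012 and AgR007_g013, neighbours on scaffold AgR007, had 2 of 2 and 10 of 10 transcripts called. Their highest, AgR007_g012_t02 and AgR007_g013_t06, had 2.4 and 7.5 RPKM in the mitotic region and 20.5 and 37.1 in early pachytene. Patched domain-containing protein 3 (AgR015_g207_t01) had 0.9, 10.3 and 10 RPKM and was at 0 in diplotene and oocytes. Receptor-type tyrosine-protein phosphatase epsilon (AgR017_g057_t04, 5 of 7 transcripts called) was among the more abundant, at 31.6, 144.2 and 129.5. Leucine-rich repeat neuronal protein 2 (AgB15X_g036, 3 of 3) and translocon-associated protein subunit delta (AgR023_g059, 3 of 8) were also lower. In all, 16 genes had 3 or more lower transcripts, and in 37 of the 50 genes every transcript at 10 RPKM or more was called.

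Isoforms decided some calls. Summed per gene, the difference of Neurogenic differentiation factor 1 shrank to -0.81, that of Cuticle collagen 34 (AgB07_g048) to -1.75, and that of the kn motif and ankyrin repeat domain-containing protein 1 gene AgR040X_g083 turned to 0.13. The called transcript of that last gene, AgR040X_g083_t03, had 2.1 RPKM in the mitotic region, 15.1 in early and 14.2 in late pachytene. Sums per gene gave 36 higher and 72 lower genes.

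Features that the rule did not use differed between the called sets. Marks of trans-splicing, the joining of a short leader RNA to the start of many nematode messages, were on 13261 of the 21110 transcripts (62.8%). They were on 5 of the 48 higher transcripts (10.4%) and on 78 of the 123 lower ones (63.4%). Transcripts of 1 exon were 398 of all 21110 (1.89%), 18 of the 48 higher (37.5%) and 2 of the 123 lower (1.63%). R2 copies were 13 of the 18 transcripts of 1 exon, and among the other 28 higher transcripts 3 carried the mark of trans-splicing. Scaffolds marked X held 21.6% of the 21110, 14.6% of the higher and 15.4% of the lower calls.

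Male values differed between the sets as well, but the rule favours this. It takes higher calls at 10 RPKM or more in the female mitotic region and lower calls that are low in it beside pachytene. The female mitotic medians were 68.5 RPKM for the higher set and 4.7 for the lower set. Transcripts matched for that level were not compared. In the male mitotic region, 39 of the 48 higher transcripts (81.3%) reached 10 RPKM, against 63.2% of the 21110 and 29 of the 123 lower ones (23.6%). All 20 R2 transcripts, which may share reads, are among these 39, at 51.1 RPKM or more. Under 1 RPKM there were 72 of the 123 lower transcripts (58.5%), none of the 48 higher, and 6.56% of the 21110. In all 5 male libraries, 43 of the 123 (35.0%) were under 1 RPKM, against 2.88% of the 21110. The 21110 passed their filter through the female libraries compared. Of them, the 1385 under 1 RPKM in the male mitotic region had a median difference of -0.76, and the 13349 at 10 RPKM or more there had 0.45.

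The later female libraries showed how the lower calls went on. The highest of the 5 female values was in early pachytene for 75 of the 123 (61.0%) and in late pachytene for 26 (21.1%). It was in diplotene for 13 (10.6%) and in oocytes for 9 (7.32%). Over the 21110 these shares were 18.2%, 8.68%, 5.77% and 6.48%. The rule itself bars the mitotic region from being highest in a lower call and favours pachytene. By diplotene 33 of the 123 (26.8%) were at least 4-fold below late pachytene, against 18.9% of the 21110, and 10 (8.13%) were at least 4-fold above it, against 1.17%. All 8 transcripts of the hypothetical gene AgR047_g008 were called, and they are 8 of the 10 at least 4-fold above late pachytene in diplotene. Its transcript AgR047_g008_t08 had 29.6, 171.7 and 171.7 RPKM in mitotic region, early and late pachytene, 1355.0 in diplotene and 497.8 in oocytes. Of the 48 higher transcripts, 29 (60.4%) were under 1 RPKM in oocytes against 4.62% of the 21110. R2 copies were 19 of these 29, and 10 were among the other 28 higher transcripts.

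Transcripts of eliminated genes were shifted towards the mitotic region. Programmed DNA elimination is the loss of part of the genome from the somatic cells of the early Ascaris embryo, and these genes remain only in the germline. The 1257 eliminated transcripts at 10 RPKM or more (272 genes) had a median difference of 0.58, and the 19853 retained ones had 0.32. Of the eliminated, 16.6% were 2-fold higher in the mitotic region, and of the retained 7.67%. At 2-fold lower the shares were 3.34% and 4.62%. Without transcripts named HUWE1, described next, the eliminated median was 0.57 and 14.6% were 2-fold higher.

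A family of E3 ubiquitin-protein ligase HUWE1 genes, chosen after its values were seen, was 2-fold higher in the mitotic region. HUWE1 is a large enzyme that in mammals marks proteins for degradation. All 54 transcripts (12 genes) named for it reached 10 RPKM, and 53 of them (11 genes) were 2-fold higher, also after rescaling. They ranged from 86.5 to 2422.0 RPKM in the mitotic region with a median of 773, from 24.6 to 926.0 with a median of 239 in early pachytene, and from 26.8 to 919.8 with a median of 259 in late pachytene. The highest, AgE03_g001_t03, had 2422.0, 875.1 and 885.0 RPKM. Its gene, AgE03_g001, is eliminated and has 24 transcripts called at 2-fold, of which 21 carry the name. Copies of this family may share reads, and 30 of the 54 transcripts are of eliminated genes.

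Most germline regulators did not pass even the 2-fold rule. In the list of translational control and germline stem cell regulators, 226 transcripts at 1 RPKM or more had a median difference of 0.33, beside 0.26 for all 42403 such transcripts. Of the 144 at 10 RPKM or more, 12 transcripts (5 genes, 8.33%) were 2-fold higher and 8 (1 gene, 5.56%) 2-fold lower, shares close to the 8.2% and 4.54% of all transcripts. Rescaled, these were 6 and 15. The gld-1 named AgR014X_g175_t03 had 96.5 RPKM in the mitotic region, 33.9 in early and 31.3 in late pachytene, while a second gld-1 named gene, AgB07_g097_t02, had 262.3, 169.7 and 160.1 and was not called. In C. elegans GLD-1 represses translation and drives entry into meiosis. The transcript of poly RNA polymerase gld-2, which lengthens the tails of messages (AgR019X_g069_t05), had 51.6, 20.3 and 20.8. The fem-3 mRNA-binding factor 2 transcript AgB04_g282_t01, whose C. elegans counterpart keeps germline stem cells dividing, had 69.2, 30.5 and 33.4 RPKM. After rescaling, the gld-1 transcript was still 2-fold higher, and those of gld-2 and the binding factor were not. The lower gene was fog-3, which promotes sperm fate in C. elegans, at 5.4, 15.8 and 17.5 RPKM in AgR026_g048_t02.

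Genes of meiotic recombination had few calls, and none was lower in the mitotic region than in pachytene. The list of meiotic prophase and recombination (97 transcripts, 24 genes, all at 1 RPKM or more) had a median of 0.54 towards the mitotic region. Of the 69 transcripts (17 genes) at 10 RPKM or more, 4 (2 genes) were 2-fold higher, or 5.8% against 8.2% of all. None was 2-fold lower, against 4.54% of all, and none was called at 4-fold. HORMA domain-containing protein 1, a part of the axis of meiotic chromosomes, had 45.1 RPKM in the mitotic region, 54.1 in early and 52.5 in late pachytene in AgR016_g127_t02, but 24.1, 11.0 and 9.0 in AgE01_g056_t02. The cohesin list (59 transcripts, 14 genes) had a median of 0.54. Of its 41 transcripts (8 genes) at 10 RPKM or more, 6 (14.6% against 8.2% of all) were 2-fold higher. They came from 2 genes, both named structural maintenance of chromosomes protein 1A. The highest of the list, AgE43_g001_t12, had 47.6, 19.1 and 21.2 RPKM. After rescaling, the meiotic and cohesin medians were 0.27 and 0.25, and 2-fold calls were 0 and 1.

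Replication and cell cycle genes differed little between the regions. DNA replication (360 transcripts at 1 RPKM or more) had a median of 0.29, with 13 (4 genes) 2-fold higher and none lower, and no 2-fold call after rescaling. Of the 116 at 10 RPKM or more, the higher ones were 11.2%. Thymidylate synthase, which makes a DNA precursor (AgR034_g052_t02), had 89.6, 36.9 and 36.9 RPKM. The mitotic cell cycle list (319) had a median of 0.38 and 1 transcript 2-fold higher. Cyclin-B, the activator of mitotic entry (AgR002_g242_t01), had 83.6, 73.6 and 69.6 RPKM, and cyclin-D1 (AgR048X_g050_t04) had 115.9, 113.9 and 122.2. These levels were close to each other in all 3 libraries. Histones (50) had a median of 0.42 with no 2-fold call in either direction. Histone modifying enzymes and chromatin factors (437) had 0.49 with 24 transcripts (8 genes) higher, or 12.4% of the 194 at 10 RPKM or more, and 9 (1 gene) after rescaling.

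Germ granule and small RNA genes had no 4-fold calls. Germ granule transcripts (108) had a median of 0.59 with 6 (1 gene) 2-fold higher, which is 8.22% of the 73 at 10 RPKM or more, as over all transcripts, and 1 after rescaling, and the Argonaute list (74) had 0.42 with none. Of named Argonautes, CSR-1, which binds small RNAs against expressed genes in C. elegans (AgR015_g142_t01), had 192.1 RPKM in the mitotic region, 88.5 in early and 101.6 in late pachytene. It missed the 2-fold rule through the late library. The tudor domain-containing AgE01_g033_t01 had 79.4, 39.4 and 39.9.

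Translation factors had the most 2-fold higher calls of the housekeeping lists. Of 135 transcripts at 10 RPKM or more, 35 (12 genes) were 2-fold higher, or 25.9% against 8.2% of all, and 15 (6 genes) after rescaling. None was lower in either case, and the median of the 210 at 1 RPKM or more was 0.50. Elongation factor 2, which moves the ribosome along the message (AgB04_g312_t02), had 619.3, 205.9 and 224.0 RPKM, and elongation factor 1-alpha (AgR011_g330_t01) had 451.3, 182.2 and 184.0. After rescaling the first was still called and the second was not. Ribosomal proteins (329) had few 2-fold calls. Their median was 0.35 with 4 transcripts (2 genes) higher, none after rescaling, and 40S ribosomal protein S9 (AgR017_g200_t02) had 953.8, 943.4 and 804.2 RPKM.

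In other housekeeping lists the 2-fold calls depended on scaling, as they did over all transcripts. Of all, 8.2% were higher and 4.54% lower, and rescaled there were 505 higher and 1875 lower of 20242. The heat shock and chaperonin list (275) had a median of 0.45, with 19 transcripts (12 genes) 2-fold higher and 1 lower. The higher ones were 9.9% of the 192 at 10 RPKM or more, and the counts turned to 7 higher and 9 lower after rescaling. The proteasome (166) had 0.40 with 11 (3 genes, 10.3% of those at 10 RPKM or more) higher, but 0 higher and 2 lower after rescaling. Splicing (316) had 0.41 with 8 (3 genes, 5.8%) higher, and 3 after rescaling. Mitochondrial energy metabolism (348) had 0.20 with 20 (5 genes, 7.69%) higher and 7 (2 genes, 2.69%) lower. These turned to 1 higher and 11 lower of 259 after rescaling. MAP kinase and growth factor signalling (271) had 0.25 with 15 (6 genes, 9.55%) higher and 7 (3 genes, 4.46%) lower, and these turned to 6 and 10. Programmed cell death (72) had 0.17 with none, but 2 lower after rescaling, and innexins (81) had 0.08 with 1 higher, and none after rescaling. No member of these 7 lists was called at 4-fold. Outside the lists, and chosen after its values were seen, phosphoenolpyruvate carboxykinase, an enzyme of glucose synthesis (AgB18_g052_t14), had 1277.8, 515.2 and 519.9 RPKM, and was no longer 2-fold higher after rescaling.

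**Figure D5:**
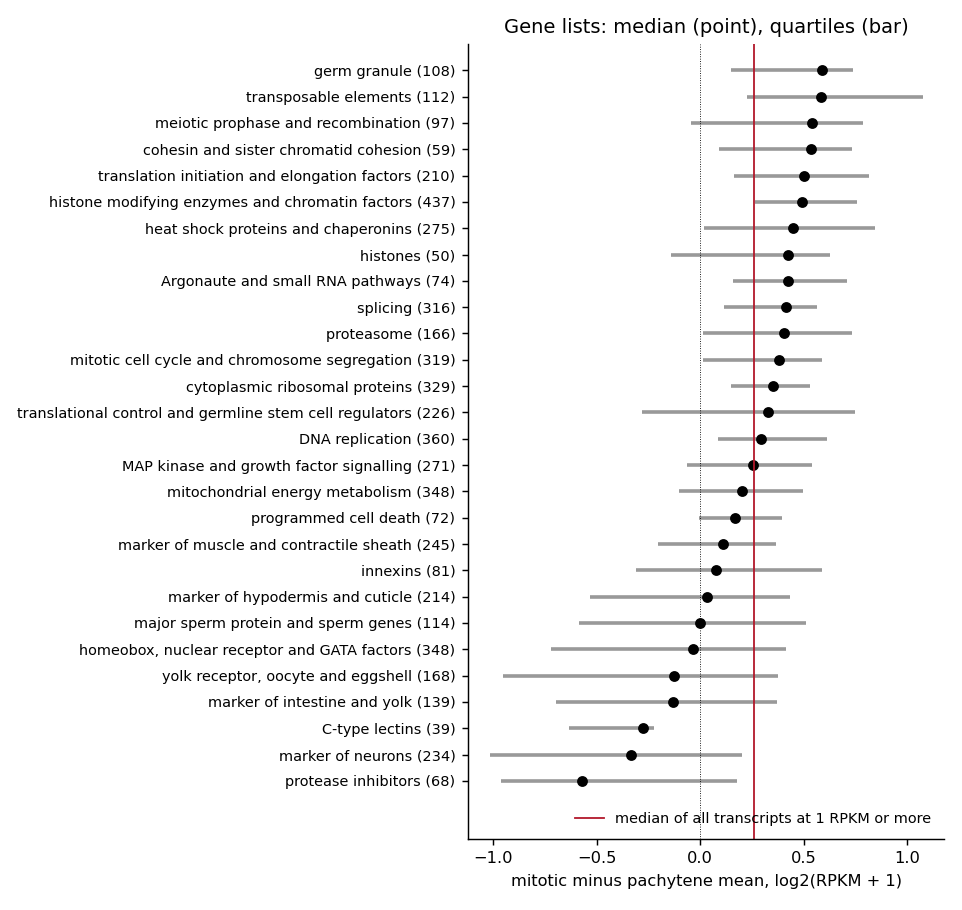
Median (point) and quartiles (bar) of the difference between the mitotic region and the mean of early and late pachytene in log2(RPKM + 1), for each of the 28 gene lists, with the number of transcripts at 1 RPKM or more in parentheses. The red line is the median of all transcripts, 0.26; protease inhibitors, at -0.57, lie farthest to the left and the germ granule and transposable element lists, at 0.59, farthest to the right.

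Ovarian message and eggshell genes supplied the highest values of the mitotic region, and many were higher still in pachytene. Of the list of yolk receptor, oocyte and eggshell genes, 142 transcripts reached 10 RPKM, of which 25 (11 genes) were 2-fold lower in the mitotic region, or 17.6% against 4.54% of all, and none higher. Rescaled, these were 58 transcripts of 20 genes. The ovarian abundant message protein transcript AgB01_g322_t03 had 15108.9 RPKM in the mitotic region, 30258.6 in early and 25947.7 in late pachytene, and missed the 2-fold rule through the late library. Its relative AgB24_g040_t04 had 5822.6, 13600.8 and 11826.0. Chondroitin proteoglycan 3 of gene AgR005_g430 (AgR005_g430_t01) had 1880.1, 5851.4 and 4987.3, and that of its neighbour AgR005_g431 (AgR005_g431_t01) had 854.4, 3270.3 and 2889.0. A chondroitin proteoglycan 2 transcript, AgR005_g202_t04, had 11169.5, 15189.3 and 13544.0. The only members at 4-fold were the chondroitin proteoglycan 3 transcripts of AgR007_g026.

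Protease inhibitors had the lowest median of all lists. Of the 102 transcripts (39 genes) in that list, 68 reached 1 RPKM, with a median of -0.57. Of the 46 that reached 10 RPKM, 15 (7 genes, 32.6% against 4.54% of all) were 2-fold lower in the mitotic region and none higher. With rescaling 30 (11 genes) were lower. A serpin-like protein, a family of serine protease inhibitors (AgR031_g029_t08), had 229.0 RPKM in the mitotic region, 532.8 in early and 496.5 in late pachytene. The metalloproteinase inhibitor AgR008_g221_t01, neighbour of tag-225, had 117.2, 317.3 and 310.5. The 4-fold members were the transcripts of tag-225, given above, and pepsin inhibitor Dit33 does not carry the words of the list. Of 34 C-type lectin transcripts at 10 RPKM or more, 8 (23.5% against 4.54% of all) were 2-fold lower. All 8 are of 1 gene, with AgR005_g093_t13 at 7.4, 22.4 and 22.7 RPKM.

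Developmental transcription factors had more lower than higher calls. In the homeobox, nuclear receptor and GATA list (348 transcripts at 1 RPKM or more, median -0.04), 167 reached 10 RPKM. Of these, 21 (9 genes, 12.6% against 4.54% of all) were 2-fold lower in the mitotic region and 4 (2 genes, 2.4% against 8.2%) higher. After rescaling the counts were 33 and 0. Nuclear receptor nhr-25 (AgR011_g059_t01) had 10.2 RPKM in the mitotic region, 38.3 in early and 35.6 in late pachytene. The Hox protein lin-39 (AgB03_g386_t04) had 21.8, 52.4 and 48.2, and the Hox protein ceh-13 on the same scaffold (AgB03_g389_t01) had 10.5, 26.7 and 22.5. In the other direction, nuclear hormone receptor E75 (AgR013X_g024_t02) had 116.2, 46.6 and 53.2, a call lost on rescaling. The 4-fold member was the elt-2 transcript.

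Markers of somatic cell types had medians below the 0.26 of all transcripts in all 4 lists, by -0.15 for muscle, -0.39 for intestine, -0.23 for hypodermis and -0.60 for neurons. After rescaling each list had more 2-fold lower than higher calls. So had all 20242 transcripts at 10 RPKM or more after rescaling, with 1875 lower and 505 higher. Summed over 1 transcript per gene, the muscle and contractile sheath list (116 genes) held 1703 RPKM in the mitotic region, 1413 in early and 1425 in late pachytene. Of its 122 transcripts at 10 RPKM or more, 12 (7 genes, 9.84% against 8.2% of all) were 2-fold higher. Among them was myosin-4 named AgB03_g340_t11 at 142.8, 49.3 and 51.5. Another 11 (5 genes, 9.02% against 4.54% of all) were lower, among them myosin-4 named AgR012_g205_t06 at 11.6, 32.0 and 32.9. After rescaling these were 4 higher and 12 lower of 124. Its members at 4-fold were 3 Titin-named transcripts of AgR068_g002. The let-75 gene AgR023_g026, with 6 of 6 transcripts called 4-fold higher, does not carry the words of the list and is not counted in it. The intestine and yolk list (56 genes) summed to 353, 352 and 365 RPKM, and 12 to 13 of its genes were at 0. None of the 9 vitellogenin transcripts reached 10 RPKM, and elt-2 was the only 2-fold call, with 3 lower and 0 higher of 42 after rescaling.

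The hypodermis and cuticle list (207 genes) summed to 920, 1258 and 1087 RPKM, with 76 to 79 genes at 0. Of the 85 transcripts at 10 RPKM or more, 13 (9 genes, 15.3%) were 2-fold lower in the mitotic region and 1 higher, 16 and 1 after rescaling, and 5 of 3 collagen genes were 4-fold lower, with Cuticle collagen 34 highest (AgB07_g048_t01, 5.9, 31.4 and 27.7 RPKM). Neuronal markers (144 genes) summed to 740, 904 and 877 RPKM, with 37 to 40 genes at 0. Of the 74 transcripts at 10 RPKM or more, 20 (8 genes, 27.0% against 4.54% of all) were 2-fold lower in the mitotic region and 2 higher, and 29 and 0 after rescaling. The median was -0.34. The 4-fold members were synaptotagmin-9, a vesicle protein (AgR053_g037_t01, 10.8, 47.1 and 48.3), and neuropeptide Y receptor type 1 (AgB10_g103_t02, 2.8, 16.9 and 17.4). Whether these changes come from germ cells or from cells of the gonad wall was not tested.

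The list of major sperm protein and sperm genes had a median of 0.00 over 114 transcripts at 1 RPKM or more. Of the 30 (11 genes) at 10 RPKM or more, 6 (2 genes) were 2-fold lower in the mitotic region and none higher. The lower ones were 20% against 4.54% of all. The gene AgR001_g368, named for major sperm protein in 4 of its transcripts, had 5 of 5 called at 4-fold, with AgR001_g368_t04 at 3.6 RPKM in the mitotic region, 25.7 in early and 29.9 in late pachytene. Summed over 1 transcript per gene, the 82 genes of the list held 311 RPKM in the mitotic region, 376 in early and 302 in late pachytene.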

How the data were processed

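The authors deposited 1 table of values per transcript, taken as RPKM because TopHat2 and Cufflinks are named in the submitters' processing notes. Their versions, the genome build and the use of strand are not given there. Per the labels' protocols, Trizol RNA of ground tissue was depleted of ribosomal RNA with a mammalian kit before TotalScript library preparation. RPKM depends on which transcripts are abundant. Depth is unknown, since the deposited values are not counts, so no interval for counting error can be given. Each of the 10 value columns was matched to its sample by name, none was unmatched, and the table has 15 empty columns. The 5' end libraries of a mixed sample (2) are not analysed here.

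Differences used log2(RPKM + 1) with the 4-fold and 10 RPKM rule given in the results, checked on simulated data (Python 3.11.15, pandas 2.3.3). A gene is a transcript name without its isoform number. The 28 lists match words in annotations, and words that matched other proteins were left out after the annotations were read. List medians use transcripts at 1 RPKM or more. Members and lists were chosen with earlier results of these data known. Named transcripts had a descriptive annotation and were the 15 genes each way with the largest differences, each gene taken by its most abundant called transcript, called members and the 3 highest genes of each list, and genes with 3 or more calls. Other transcripts at 2-fold were named as examples after their values were seen.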

Additional observations from a re-analysis of the deposited data

How the results depend on the processing

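The counts of 4-fold calls, 48 higher and 123 lower, changed by over 1.5 times with several settings. With 50 RPKM as the minimum there were 28 higher and 36 lower. With median-ratio scaling there were 25 and 232, and with the 100 highest transcripts removed and totals made equal 30 and 198. With 1 transcript per gene there were 29 and 47, and with sums per gene 36 and 72. At 2-fold there were 1731 and 959, and at 2-fold with median-ratio scaling, chosen after seeing the data, 505 and 1875. Without R2 transcripts, also chosen after seeing the data, 28 higher calls remained. A pseudocount of 0.1 gave 64 and 176, and no filter 56 and 144. Leaving out transcripts under 1% of a later male library changed neither count. Called against 1 pachytene library alone, without late or without early pachytene, the counts were 55 to 65 higher and 128 to 147 lower. Of 276 values of 46 named called transcripts, 264 kept their call and 11 lost it. The other, of AgR040X_g083_t03, turned to 0.13 when summed per gene, where other isoforms of the gene join it. Calling against 1 pachytene library alone or with a pseudocount of 0.1 can only add calls. In those settings the 46 transcripts kept their calls by construction. The median difference of all transcripts, 0.26, became -0.0012 with median-ratio scaling, which sets it near 0 by construction. No paired analysis was possible because each region is 1 library and the labels carry no replicate numbers. With no replicates, variation between worms or dissections cannot be told apart from the differences between regions, and the depth behind low values is unknown.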
